A study of Mus musculus with 6 samples.

Results

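The genes described here are 10 negative regulators of the canonical Wnt pathway: Axin1, Axin2, Apc, Gsk3a, Gsk3b, Btrc, Chd8, Dkk1, Sfrp1 and Tcf7l1. They were taken by name from the 21853 protein-coding genes of GENCODE M21 on the assembled chromosomes of GRCm38. For each, the deposited HA-Tex10 and H3K4me3 intervals were read within 1 kb of a transcription start site (TSS) and in the gene body plus 10 kb on either side. The names were selected on known pathway roles with earlier results of these same 2 lists in view, namely which genes had an interval at a TSS. The values below are therefore a description, and no test was run on them.

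The study mapped chromatin by ChIP-seq in primordial germ cell-like cells (day 2), a culture model of the embryonic germline precursors. The cells were untreated and of strain 129Sv/J, and their Tex10 protein bears an HA tag at the C terminus. An anti-HA antibody was used on 2 samples and an antibody to H3K4me3, the trimethyl mark on lysine 4 of histone H3 found at active or poised promoters, on 2 others, beside 2 samples of input DNA. The lists give 1 set of intervals per antibody without a score, so no value below has a replicate error, and sequencing depth is not known.

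In the canonical Wnt pathway, a cytoplasmic destruction complex marks β-catenin for removal. Its scaffolds are Axin1, Axin2 and Apc, and its kinases include Gsk3a and Gsk3b. The phosphorylated protein is recognised by Btrc, the substrate-binding subunit of an SCF ubiquitin ligase. Upstream, the secreted proteins Dkk1 and Sfrp1 limit Wnt signalling from outside the cell. In the nucleus, Tcf7l1 holds Wnt target genes repressed, and the chromatin remodeller Chd8 binds β-catenin and limits its activity. Wnt signalling takes part in the induction of germ cell precursors from the early embryo, and Axin2 is itself a well-known target that feeds back on the pathway.

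On the assembled chromosomes the lists held 4238 HA-Tex10 and 29002 H3K4me3 intervals. As a check of the label, H3K4me3 lay at a TSS of 4 of 6 germ cell-like markers (Prdm1, Prdm14, Tfap2c and Kit, not Dppa3 or Nanos3). It lay at a TSS of 4 of 4 pluripotency genes and of 3 of 10 markers of other cell types (Gata4, Foxa2 and Sox17). The share of all protein-coding genes was 60.9%, so the count of germ cell-like markers does not by itself bear out the label. The mark also occurs at silent developmental genes, so it does not give their expression.

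HA-Tex10 was called within 1 kb of a TSS at Axin2, Gsk3a, Btrc and Chd8, which is 4 of the 10 genes. Over all protein-coding genes the share was 8.66%, and this measure was known when the genes were chosen. It was 13.9% among genes with H3K4me3 at a TSS and 0.433% among those without, and all 4 belonged to the former. The other 6 genes, Axin1, Apc, Gsk3b, Dkk1, Sfrp1 and Tcf7l1, had none there and none in the body plus 10 kb. An H3K4me3 interval lay within 1 kb of a TSS of 9 genes, all but Dkk1, where the share of all genes was 60.9%. In the whole list, all but 172 of the 1773 HA-Tex10 intervals within 1 kb of a TSS overlapped H3K4me3. Of the 5 intervals for HA-Tex10 at the starts of the members, 4 lay inside an H3K4me3 interval over their whole width.

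The sequences under these 5 intervals follow, as a description of the DNA at these calls only. Each is read 5′ to 3′ on the strand of its gene from GRCm38.p6, and parts in annotated untranslated exons are left out. Of the 420 bp at Gsk3a, the central 300 bp are printed. Capitals mark matches to the short motifs named further on.

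Axin2, chr11:108920568-108920629, plus strand: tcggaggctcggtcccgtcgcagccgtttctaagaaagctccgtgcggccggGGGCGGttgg

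Chd8, chr14:52257455-52257677, minus strand: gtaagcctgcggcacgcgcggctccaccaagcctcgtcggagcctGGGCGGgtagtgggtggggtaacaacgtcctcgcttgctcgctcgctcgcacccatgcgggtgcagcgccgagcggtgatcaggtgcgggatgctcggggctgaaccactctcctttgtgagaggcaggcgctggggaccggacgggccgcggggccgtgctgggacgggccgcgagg

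Gsk3a, chr7:25238157-25238456, minus strand: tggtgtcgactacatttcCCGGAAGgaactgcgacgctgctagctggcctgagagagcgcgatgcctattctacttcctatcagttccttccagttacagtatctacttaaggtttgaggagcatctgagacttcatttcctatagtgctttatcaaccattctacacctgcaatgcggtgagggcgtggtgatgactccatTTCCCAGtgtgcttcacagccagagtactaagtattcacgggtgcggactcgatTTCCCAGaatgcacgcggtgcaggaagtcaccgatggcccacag

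Btrc upstream interval, chr19:45363249-45363467, plus strand: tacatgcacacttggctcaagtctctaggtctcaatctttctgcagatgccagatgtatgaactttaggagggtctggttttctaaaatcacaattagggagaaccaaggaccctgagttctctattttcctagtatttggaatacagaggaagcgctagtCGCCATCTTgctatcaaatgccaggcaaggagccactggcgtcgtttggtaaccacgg

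Btrc interval over the start sites, chr19:45363683-45363733, plus strand: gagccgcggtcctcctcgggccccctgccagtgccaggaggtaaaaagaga

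The 5 intervals fell into a GC-rich and a GC-poorer group. GC content was 69.4% at Axin2, 71.0% at Chd8 and 70.0% in the Btrc interval over the start sites. It was 50.7% at Gsk3a and 46.1% in the upstream Btrc interval. In all 5, 0.0% of the 32-base words were repeated elsewhere on the assembled chromosomes. Of all HA-Tex10 intervals, 39.7% had over 50% of their words repeated. At a TSS this was uncommon: 1642 of the 1773 intervals there were mostly single-copy, that is, not above this 50%.

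**Figure D1:**
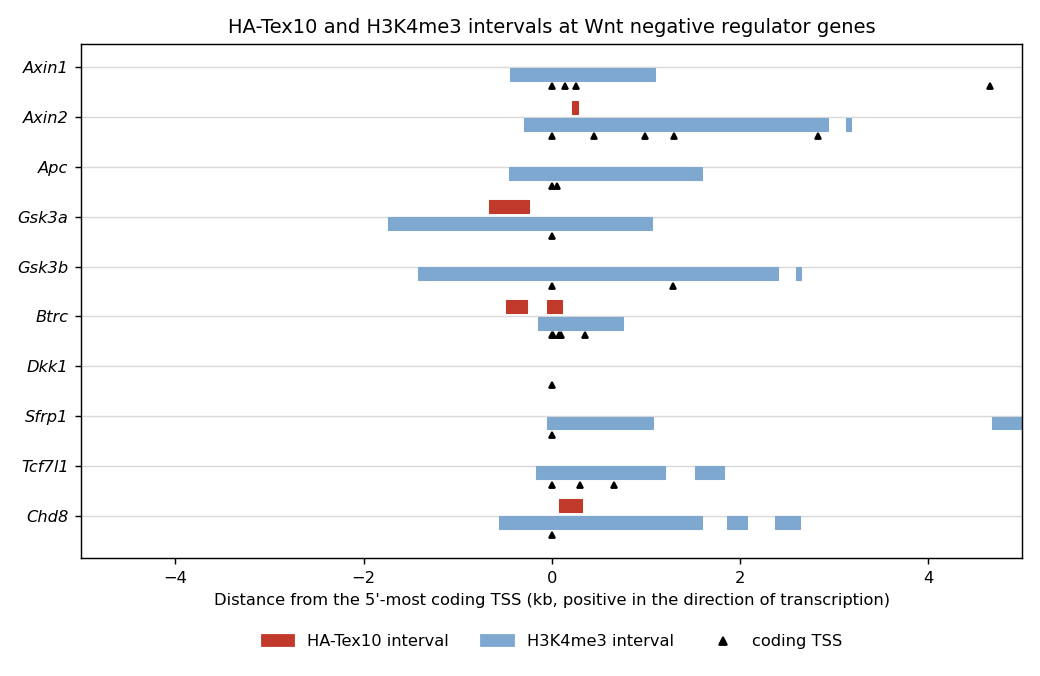
HA-Tex10 intervals (red), H3K4me3 intervals (blue) and coding TSS (triangles) of the 10 genes, by distance in kb from the 5′-most TSS, positive in the direction of transcription. Red bars appear at Axin2, Gsk3a, Btrc and Chd8, and Dkk1 is the gene with no bar of either kind within 5 kb.

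The destruction complex scaffolds differed among themselves. Axin2 (ENSMUSG00000000142.15) is a plus-strand gene of chromosome 11, from 108920349 to 108950783 and has 5 coding TSS. Its HA-Tex10 interval spanned 108920568 to 108920629, a width of 62 bp. It began 219 bp downstream of the 5′-most TSS, in an intron, and ended 171 bp before the next TSS. It was among the narrow intervals of the list, at percentile 8.0 of width. The surrounding H3K4me3 interval was 3231 bp wide, from 108920056 to 108923286, and ran across all 5 TSS of the gene. Further H3K4me3 intervals of 51 bp and 484 bp lay downstream within the gene, and one of 453 bp lay 9312 bp upstream of it. The 484 bp interval, from 108941649 to 108942132, was in an intron and within 1 kb of the start of the gene model Gm11670.

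Axin1 (ENSMUSG00000024182.16), the constitutive paralog of Axin2, is a plus-strand gene of chromosome 17, from 26138688 to 26195811. It had an H3K4me3 interval of 1547 bp over its first start sites, from 26138242 to 26139788, and no HA-Tex10 interval. A group of 3 narrower H3K4me3 intervals, of 397, 12 and 197 bp, lay upstream, at -7329 to -6336 bp from the TSS, with no annotated start within 1 kb. The intervals of 991 bp and 883 bp past its 3′ end were at the starts of Arhgdig and Rgs11. The nearest HA-Tex10 interval, 172 bp wide, was 24812 bp upstream of the Axin1 TSS, at a start of Tmem8. Of the 6 genes without a Tex10 interval, Axin1 was the closest to one.

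Apc (ENSMUSG00000005871.15), the tumour suppressor that binds β-catenin in the complex, is a plus-strand gene of chromosome 18, from 34220924 to 34322552. It carried H3K4me3 at separate starts: 2052 bp from 34220465 to 34222516 over the 5′-most TSS, and 697 bp from 34247748 to 34248444, beginning 50 bp after a coding TSS that lies further into the gene. No HA-Tex10 interval was closer than 426.0 kb to an Apc TSS. The H3K4me3 intervals of 296 bp and 1776 bp past its 3′ end were at Srp19.

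The paired kinases were both marked and differed in HA-Tex10. Gsk3a (ENSMUSG00000057177.12) is a minus-strand gene of chromosome 7, from 25228258 to 25237851 and has 1 coding TSS. Its HA-Tex10 interval ran from 25238097 to 25238516, 420 bp wide and at percentile 88.2 of width. The whole interval was upstream of the gene, at -665 to -246 bp from the TSS. The 2809 bp H3K4me3 interval over the TSS contained it. No start of another gene lay within 1 kb of it. A second HA-Tex10 interval, of 132 bp from 25220081 to 25220212, fell in the 10 kb past the 3′ end of Gsk3a. That one was within 1 kb of starts of Dedd2 and 4933430L12Rik and inside an H3K4me3 interval of 1843 bp, and it lay 17639 bp from the Gsk3a TSS. It therefore counts for Gsk3a only through the flank.

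Gsk3b (ENSMUSG00000022812.14), on the plus strand of chromosome 16 from 38089001 to 38246084, had the widest promoter H3K4me3 interval of the 10 genes. This interval was 3824 bp wide, from 38087581 to 38091404, which is percentile 97.7 of the genes with the mark. The nearest HA-Tex10 interval was 354.6 kb from a Gsk3b TSS, at Tmem39a. Of the 2 kinase genes, the one with the wider H3K4me3 interval had no HA-Tex10 interval.

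Btrc (ENSMUSG00000025217.15), on the plus strand of chromosome 19 from 45363734 to 45530013, differed from Gsk3b in both respects. It had 2 HA-Tex10 intervals at its start and 1 promoter H3K4me3 interval, 895 bp from 45363592 to 45364486. Compared by the widest promoter interval of each gene, this was the narrowest of the 9 marked genes. Over all genes, 176 (0.805%) had 2 or more HA-Tex10 intervals within 1 kb of a TSS, out of 1893 that had any there. One Btrc interval, 160 bp from 45363683 to 45363842, covered several of the 6 coding start sites and lay inside the mark. The other, 219 bp from 45363249 to 45363467, ended 267 bp before the 5′-most TSS and 125 bp before the edge of the mark. It overlapped the annotated gene 1700016H03Rik, which starts within 1 kb. Intervals at a TSS but off the mark were uncommon in the whole list, 172 of 1773, and 118 of those 172 were within 1 kb of an H3K4me3 interval. The median distance of the 172 to the mark was 296.5 bp.

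Among the nuclear regulators, Chd8 (ENSMUSG00000053754.14) had HA-Tex10 and Tcf7l1 did not. Chd8 is a minus-strand gene of chromosome 14, from 52198151 to 52257780. Its HA-Tex10 interval, 252 bp from 52257455 to 52257706, began 74 bp and ended 325 bp downstream of the 5′-most TSS, across the end of an untranslated exon. Its centre was in sequence that is exonic only in a non-coding transcript. It lay wholly within 2161 bp of H3K4me3. A start further into the gene had its own H3K4me3 interval of 1335 bp, from 52243816 to 52245150, without HA-Tex10. Between these, intervals of 266 bp and 208 bp lay 1864 to 2634 bp downstream of the first start. The 2766 bp interval at the 3′ end was at the start of the neighbouring gene Supt16.

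Tcf7l1 (ENSMUSG00000055799.13), a minus-strand gene of chromosome 6, from 72626378 to 72789254, had an H3K4me3 interval of 1368 bp over its starts, from 72788052 to 72789419. A further one of 316 bp came within 862 bp of a TSS. An intronic interval of 268 bp, from 72677085 to 72677352, was far from any start of the gene, 111246 bp downstream of the nearest. The closest HA-Tex10 interval was 555.3 kb away, with no coding TSS within 1 kb of it.

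The secreted antagonists had no HA-Tex10 interval. Their promoter H3K4me3 was at percentile 38.9 of width among the marked genes at Sfrp1 and missing at the Dkk1 start. Sfrp1 (ENSMUSG00000031548.7), on the plus strand of chromosome 8 from 23411502 to 23449632, had a promoter interval of 1127 bp from 23411448 to 23412574. It began at -54 bp from the TSS and was centred in a coding exon, and a second interval of 399 bp lay 4672 bp downstream. The nearest HA-Tex10 interval, at Golga7, was 154.3 kb from the Sfrp1 TSS. Chromosome 8 held many HA-Tex10 intervals, and 41.2% of its genes with H3K4me3 at a TSS had one, so Sfrp1 was among the genes without one on that chromosome.

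Dkk1 (ENSMUSG00000024868.8), a minus-strand gene of chromosome 19, from 30545863 to 30549665, had no H3K4me3 interval within 1 kb of its single TSS. The one H3K4me3 interval in its body plus 10 kb was 204 bp wide, from 30539521 to 30539724, and overlapped the pseudogene Ppp1r2-ps3. The nearest HA-Tex10 interval was 736.6 kb from the TSS, at Ranbp6, the longest distance among the 10 genes. Neither antibody gave an interval at its start.

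The 250 bases before the 5′-most GENCODE start of Gsk3b, with the widest mark, and of Dkk1, with none, are printed with CG dinucleotides in capitals. Both are from GRCm38.p6 on the strand of the gene.

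Gsk3b, chr16:38088751-38089000, plus strand: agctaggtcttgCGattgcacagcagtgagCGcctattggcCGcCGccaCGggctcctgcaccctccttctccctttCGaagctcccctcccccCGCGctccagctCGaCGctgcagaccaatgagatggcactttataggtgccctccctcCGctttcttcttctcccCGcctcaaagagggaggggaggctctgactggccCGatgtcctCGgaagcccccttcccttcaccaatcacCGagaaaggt

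Dkk1, chr19:30549666-30549915, minus strand: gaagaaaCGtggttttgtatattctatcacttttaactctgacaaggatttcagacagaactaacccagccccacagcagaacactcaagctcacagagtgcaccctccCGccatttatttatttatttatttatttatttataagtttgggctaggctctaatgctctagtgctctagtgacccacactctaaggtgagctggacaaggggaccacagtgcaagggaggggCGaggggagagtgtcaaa

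The Gsk3b stretch held 15 CG dinucleotides at 62.0% GC, and the Dkk1 stretch held 3 at 44.8% GC. This difference depends on the start used: the RefSeq promoter of Dkk1, from 30549447 to 30549746, lies further into the gene and had 60.7% GC. The RefSeq promoters of Gsk3b and Gsk3a had 63.0% and 54.3%. A window of 500 bp on either side of the 5′-most TSS had 52.8% GC at Dkk1 and 61.4 to 69.1% at the other 9 genes. The median over all genes was 54.9%, and over genes with H3K4me3 at a TSS 59.3%. The CpG observed-to-expected ratio in this window was 0.445 at Dkk1, 0.659 at Btrc and 0.731 to 1.039 at the rest. The median ratio over genes with H3K4me3 at a TSS was 0.730.

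**Figure D2:**
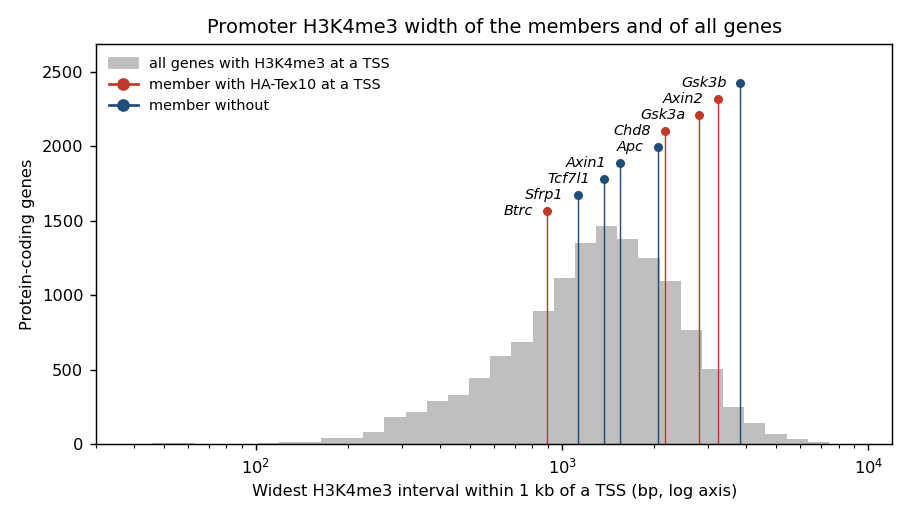
Widest H3K4me3 interval within 1 kb of a TSS, in bp on a log axis, for all 13306 genes with one (grey histogram) and for the 9 marked members (vertical lines, height has no meaning). Members with HA-Tex10 (red) ran from Btrc at 895 bp to Axin2 at 3231 bp, and those without (blue) from Sfrp1 at 1127 bp to Gsk3b at 3824 bp.

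The widest H3K4me3 interval at a TSS had a median width of 2052 bp over the 9 marked genes and 1342 bp over all 13306 genes with the mark. A gene with more TSS has more intervals to draw the widest from, and the median number of coding TSS was 3 in the members and 2 in the marked genes. The genes with HA-Tex10 had 895 bp (Btrc), 2161 bp (Chd8), 2809 bp (Gsk3a) and 3231 bp (Axin2). Those without had 1127 bp (Sfrp1), 1368 bp (Tcf7l1), 1547 bp (Axin1), 2052 bp (Apc) and 3824 bp (Gsk3b). The ranges overlapped. Over all marked genes, HA-Tex10 was at 4.92% of the narrowest 20% by this width and at 24.2% of the widest 20%. Axin2, Gsk3a, Gsk3b and Chd8 were in the widest class, and Btrc was in the class next to the narrowest, where the share was 9.92%.

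More than 1 H3K4me3 interval lay within 1 kb of a TSS at Axin2, Apc, Tcf7l1 and Chd8, 4 of the 10 genes. Over all genes, 2696 (12.3%) had more than 1, out of 13306 that had any there. The further interval was at a separate start at Apc and Chd8. At Axin2 (51 bp) and Tcf7l1 (316 bp) it lay beside the wider one. In the body plus 10 kb, all 10 genes had at least 1 H3K4me3 interval, compared with 70.7% of all genes, and there were 34 in all. Dkk1 counted only through the 204 bp interval in its flank. Several of the 34 were at starts of neighbouring genes: Arhgdig, Rgs11, Srp19, Dedd2, Zfp526, Erf, Tgoln1 and Supt16. For HA-Tex10 the count in the body plus 10 kb was 4 of 10, compared with 16.9% of all genes. The 10 genes were long, with a median of 58.4 kb against 17.4 kb over all genes. The share of genes with HA-Tex10 in this window was 17.3% in the longest 20% of genes and 14.7% in the shortest. Genes with 5 or more coding TSS, such as Axin2, Btrc and Chd8, had HA-Tex10 within 1 kb of one in 13.1% of cases, and those with 1 TSS in 6.65%. Among genes with H3K4me3 at a TSS the shares were 14.7% and 13.2%.

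**Figure D3:**
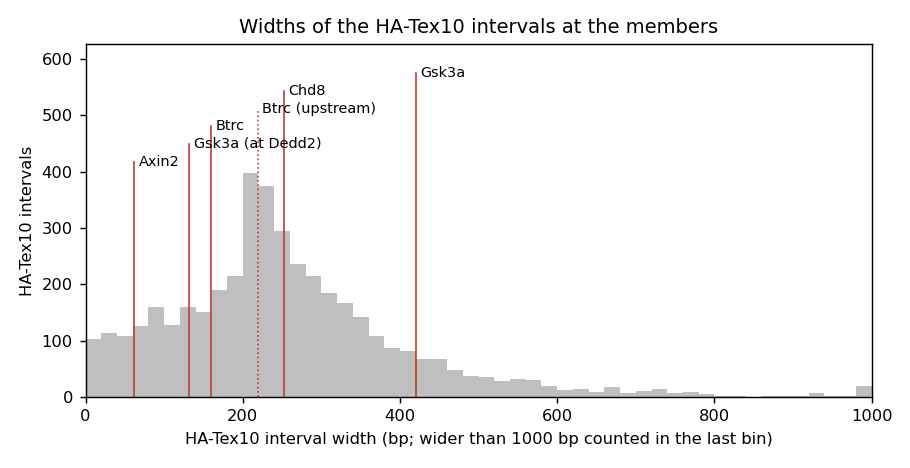
Widths in bp of all 4238 HA-Tex10 intervals on the assembled chromosomes (grey histogram) and of the 6 in the body plus 10 kb of a member (red lines, height has no meaning, dotted where no H3K4me3 overlapped). Axin2 at 62 bp was in the low tail and Gsk3a at 420 bp in the upper part.

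The 6 HA-Tex10 intervals in the windows of the members were 62, 132, 160, 219, 252 and 420 bp wide, and the median of the list was 232 bp. Axin2 was one of 253 HA-Tex10 intervals under 100 bp wide at a TSS (14.3% of 1773). Relative to the nearest TSS, 44.2% of the 1773 lay over it, 31.0% upstream and 24.8% downstream. The members gave examples of each: Btrc over start sites, Gsk3a and the second Btrc interval upstream, and Chd8 downstream. The Axin2 interval counts as upstream of its nearest TSS and downstream of the first one.

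**Figure D4:**
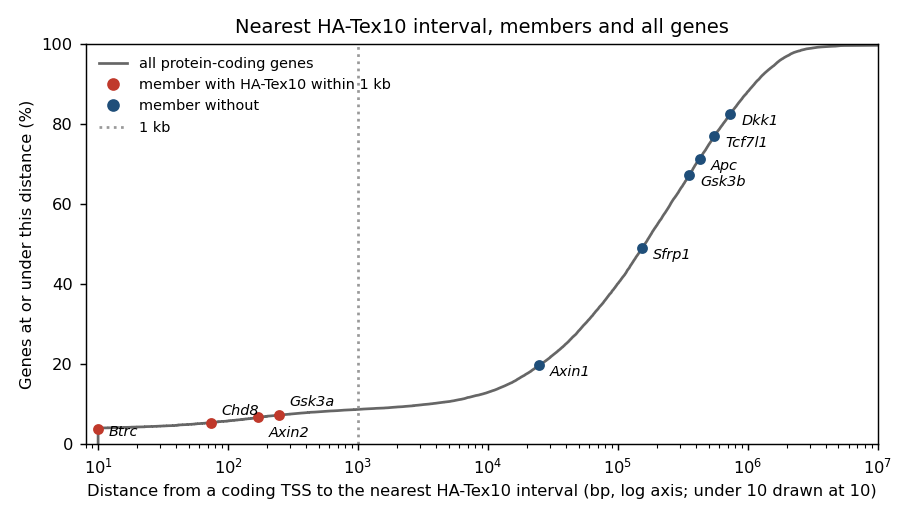
Distance in bp on a log axis from a coding TSS to the nearest HA-Tex10 interval, as the cumulative percent of all 21853 genes (grey line), with the members as points on it. Axin2, Gsk3a, Btrc and Chd8 lie left of the 1 kb line, Axin1 stands between, and Sfrp1, Gsk3b, Apc, Tcf7l1 and Dkk1 lie beyond 100 kb.

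The 1 kb limit did not decide the membership of any gene. The farthest HA-Tex10 interval inside it was the upstream one at Btrc, 267 bp from a TSS, and the nearest outside was the Gsk3a interval at 17639 bp. For H3K4me3, the farthest inside was at Tcf7l1, 862 bp from a TSS, and the nearest outside was a 47 bp interval in Gsk3b at 1311 bp. At the edge of the 10 kb flank, an H3K4me3 interval of 57 bp lay 10384 bp from the body of Axin2, just outside.

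Short motifs were searched on both strands in the 300 bp at the centre of each HA-Tex10 interval. The SP GC box (GGGCGG) was in the windows of Axin2, Btrc over the start sites and Chd8, and in 41.6% of all 4238 windows. Among the 1642 windows that, like these, were mostly single-copy and at a TSS, the share was 60.2%. At Btrc the GC box lay inside the interval but not within the bases printed above. The ETS motif (CCGGAAG) was in the Gsk3a window, in 13.4% of all and in 17.1% of the single-copy windows at a TSS. The YY1 motif (AAGATGGCG), here on the opposite strand, was in the upstream Btrc window. It was in 11.3% of all windows but in 2.54% of the 2556 windows whose interval was mostly single-copy, in 3.59% of those at a TSS, and in 1.92% of 20143 RefSeq promoters of 300 bases. The core TTCCCAG of the motif of ZNF143 was added after the Gsk3a sequence had been read, where it stands in capitals at 2 places. It was in 11.8% of all windows, 10.5% of the single-copy windows at a TSS and 10.7% of the promoters.

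No member window held the TCF/LEF motif CTTTGAT, which was in 2.17% of all windows and 3.16% of the promoters. The motifs GCATGCGC (NRF1), TGACGTCA (CREB), CACGTG (E-box), CCAAT (NFY), ATGCAAAT (OCT octamer) and ACAATGG (SOX) were in none of the member windows either, although CCAAT lay inside the full Gsk3a interval outside its central 300 bp. Their shares of all windows ran from 1.42% for CREB to 30.5% for NFY. A match is a match of letters and no match says only that these letters are not in the window.

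The RefSeq promoter table (GRCm38.p6, 250 bases before to 50 after a start) matched 6 of the 10 genes: Axin2, Gsk3a, Gsk3b, Chd8, Dkk1 and Tcf7l1. CCAAT was in the promoters of Gsk3a, Gsk3b, Axin2 and Chd8 and in 37.8% of all promoters. GGGCGG was in those of Tcf7l1, Gsk3a, Axin2 and Chd8 and in 47.7% of all. Dkk1 matched none of the motifs. Of the kinase genes, both had CCAAT, and Gsk3a but not Gsk3b had the GC box.

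Other genes of the pathway were read in the same way. The 47 other negative regulators had HA-Tex10 within 1 kb of a TSS at 4 genes (8.51%), close to the 8.66% of all genes. H3K4me3 was at 40 of the 47, and at 60.9% of all genes. The genes with HA-Tex10 were Ppp2r1a, the scaffold subunit of protein phosphatase 2A, Skp1a and Rbx1, which are partners of Btrc in the SCF ligase, and Tax1bp3, a PDZ protein that binds β-catenin. Rbx1 had 2 intervals, of 205 bp and 195 bp, and Skp1a had 1 of 239 bp over a TSS. Ppp2r1a had 1 of 207 bp and Tax1bp3 had 1 of 299 bp. Each of these 5 intervals overlapped H3K4me3.

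By role, HA-Tex10 was at 2 of 5 other ubiquitin ligase genes, 1 of 7 destruction complex genes and 1 of 10 membrane and cytoplasmic inhibitors. It was at 0 of 13 other secreted antagonists and at 0 of 12 nuclear repressors. The share of all genes was 8.66%, and each role had too few genes to tell its count from that share. Some genes of the pathway lists lie on the X chromosome, where 1 of 948 genes (0.105%) had HA-Tex10 at a TSS. The secreted antagonists carried H3K4me3 at 7 of 13 genes, among them Draxin, Frzb and Notum but not Cer1, Dkk2 or Dkk3. All 12 nuclear repressors, such as Aes, Ctbp1 and Ctbp2, carried the mark, where the share of all genes was 60.9%.

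**Figure D5:**
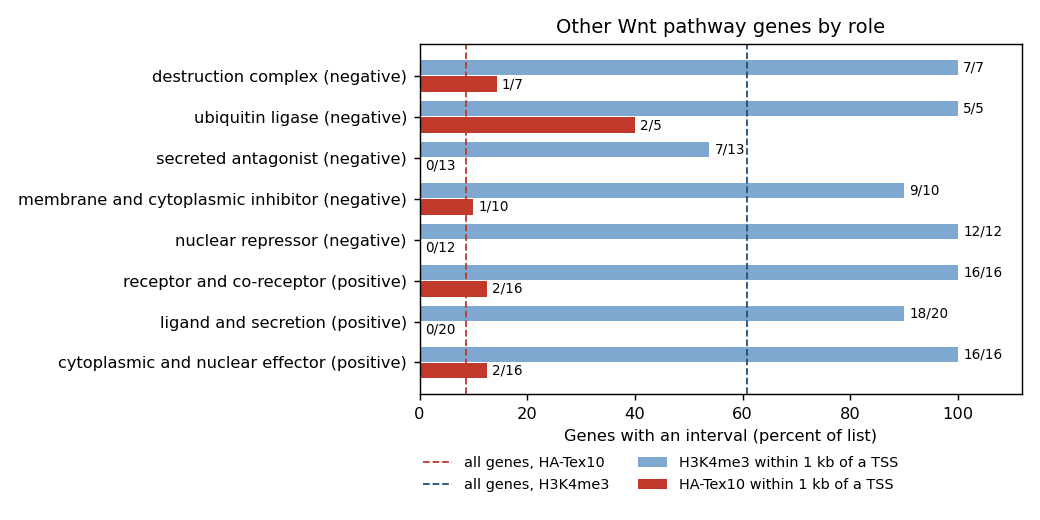
Percent of genes with H3K4me3 (blue) and HA-Tex10 (red) within 1 kb of a TSS for other Wnt pathway genes by role, with counts at the bars and dashed lines at 60.9% and 8.66% of all genes. The secreted antagonists, nuclear repressors and ligands show no red bar.

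The 52 ligands, receptors and effectors had HA-Tex10 at 4 genes (7.69%) and H3K4me3 at 50. These were the receptors Fzd2 and Fzd7, Ctnnb1, which encodes β-catenin, and Tnks, a poly-ADP-ribosyltransferase that destabilises Axin. The Ctnnb1 interval was 191 bp wide and 430 bp from a TSS. Tnks lies on chromosome 8, and its interval of 221 bp covered a TSS. Of the 20 ligand and secretion genes, 0 had HA-Tex10 at a TSS. That is too few genes to tell the count from the 8.66% of all genes. Among genes with H3K4me3, HA-Tex10 was at 4 of 40 other negative regulators and 4 of 50 genes of this group, and at 13.9% of all marked genes.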

How the data were processed

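ChIP-seq intervals came from day 2 primordial germ cell-like cells, with 2 HA-Tex10, 2 H3K4me3 and 2 input samples. The deposited lists give interval starts and ends in bp, with no score. The submitters' processing notes name Bowtie2 2.3.4.3, SAMtools 1.9, MACS2 2.1.2, HOMER and the build mm10. The threshold, the use of input and whether replicates were pooled or intersected are not given in the sources used here. A strict call makes narrow or weak sites drop out, and depth is unknown, so the absence of an interval does not show the absence of Tex10.

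Starts were converted to count from 1. No interval (0) ended past a chromosome end of GRCm38. Start sites were those of protein-coding transcripts in GENCODE M21. Overlap meant at least 1 bp. Distances run from edge to edge. Percentiles give the share of values at or below. Sequences came from GRCm38.p6, read with pysam 0.24.0 in Python 3.11.15. The strain of the cells, 129Sv/J, differs from that of the reference. The interval lookup was tested on simulated data. A further deposited list of 2990 distinct HA-Tex10 intervals is contained in the main one, and was used only as an alternative. For repeated words, HA-Tex10 intervals under 100 bp were widened to 100 bp.

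The members, gene lists and motifs were chosen with earlier results of these data known. All 10 members are named. From the other lists, genes with HA-Tex10 at a TSS are named, and up to 3 others per list and class in alphabetical order. Of the 48 other negative regulators listed, 47 matched a gene symbol. Alternatives changed the TSS window, the flank, the set of TSS, interval width, merging, the overlap rule, the list and the repeat filter.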

Additional observations from a re-analysis of the deposited data

How the results depend on the processing

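No paired analysis was possible because the lists hold no value of a single replicate, and none could be left out. Of 40 values under alternatives, 3 counts moved beyond 1.5 times. The median width of the widest H3K4me3 interval at a member TSS was 2052 bp under each alternative tried on it. With intervals wider than the median of the list, HA-Tex10 within 1 kb of a TSS and in the body plus 10 kb was each at 2 genes, Gsk3a and Chd8, in place of 4. With intervals of at least 100 bp it was at 3, and Axin2 was the gene lost. With no flank, 3 HA-Tex10 intervals overlapped H3K4me3 in place of 5, since fewer intervals were counted. A flank of 25 kb gave 5 genes with HA-Tex10, Axin1 being added, and the share of all genes rose to 23.6%. Genes with H3K4me3 at a TSS stayed at 9 under each alternative tried, where the share of all genes ran from 49.8% to 63.9%. Genes with H3K4me3 in the body plus flank were 9 in place of 10, without Dkk1, under 3 alternatives. These were no flank (64.4% of all genes), a flank of 5 kb (67.9%) and intervals wider than the median (58.9%). The unknown depth limits what an absent interval shows.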
